A study of Mus musculus with 18 samples.

Results

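Enzymes of the tricarboxylic acid (TCA) cycle and of mitochondrial fatty acid oxidation were followed in alveolar macrophages, the resident phagocytes of the airspaces. The genes were listed by symbol for their role in these pathways, by a rule that uses no measured value. The list was chosen with earlier results of these data known. Of the 35 genes listed, all 35 were found among the 32789 genes of the table, and all 35 had enough counts to be tested. They comprise 19 genes of pyruvate entry and the TCA cycle and 16 genes of fatty acid oxidation. The study measured polyA RNA of mouse alveolar macrophages, taken by bronchoalveolar lavage and positively selected on columns with CD11c microbeads, in 3 knockouts and in a control group for each.

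The Vhl/Hif1a knockout was labelled as CD11c-Cre with loss of Vhl and Hif1a, and its control as Vhl and Hif1a flox-flox. The Vhl/Hif2a knockout was labelled as CD11c-Cre with loss of Vhl and Hif2a (gene symbol Epas1), and its control as Vhl and Hif2a flox-flox. The triple knockout was labelled as CD11c-Cre with loss of Vhl, Hif1a and Hif2a, and its control as flox-flox for all 3 genes. All 3 knockouts thus shared the loss of Vhl, and no group that lacked Vhl alone was analysed here. CD11c-Cre acts in CD11c-expressing cells, which include dendritic cells as well as alveolar macrophages. The labels do not say whether the controls carried Cre, and they give no age, sex or strain. Each of the 6 groups held 3 libraries. Nothing in the labels says that the libraries came from separate animals, so the p-values below measure the spread between these libraries only.

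Pyruvate dehydrogenase turns pyruvate, the end product of glycolysis, into acetyl-CoA, which citrate synthase feeds into the TCA cycle. Long-chain fatty acids enter mitochondria on carnitine and are shortened there by repeated rounds of beta-oxidation, each of which yields acetyl-CoA and passes electrons to the respiratory chain. Vhl marks the hypoxia-inducible factors HIF-1α and HIF-2α for degradation. HIF-1α is known for inducing pyruvate dehydrogenase kinase, which switches pyruvate dehydrogenase off. Alveolar macrophages live on a lipid-rich surfactant film and are known for a high capacity to oxidise fatty acids.

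Libraries held 19230452 to 34015320 counts. Vhl itself was at 1.92 to 3.09 CPM in the 9 knockout libraries and at 12.2 to 20.1 CPM in the 9 controls, where CPM stands for counts-per-million with library sizes scaled by TMM. Whole-gene counts of Hif1a and Epas1 include exons outside any deleted part and check neither deletion: Hif1a was at 58.7 to 78.6 CPM in the Vhl/Hif2a knockout against 179 to 242 CPM in its control, while it was at 166 to 209 CPM in the Vhl/Hif1a knockout against 225 to 232 CPM. In the triple knockout Hif1a was at 236 to 241 CPM against 137 to 251 CPM. Epas1 was at 48.0 to 58.6 CPM in the Vhl/Hif2a knockout against 23.2 to 35.1 CPM, and at 30.6 to 38.4 CPM in the triple knockout against 32.6 to 51.4 CPM. The lower Hif1a level thus lay in the libraries labelled Vhl/Hif2a knockout, and group names here stand for the labels throughout. All 12 alveolar macrophage markers listed were present in every group, with a sum of 24054 to 41163 CPM, and markers of T, NK and B cells summed to under 1 CPM in every library. The control of the triple knockout numbered 2 stood apart: the median gene differed from its group mates by 0.40 on the log2 scale, against 0.07 to 0.24 for the other 17 libraries, and mitochondrially encoded transcripts held 0.725% of its counts against 1.79 to 3.14% elsewhere. This library enters the shared estimate of spread of every test, so counts of calls are also given without it.

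The 35 genes together held a nearly constant share of the transcriptome. Their summed share of counts was 0.408 to 0.457% over the 18 libraries, with the knockout and control libraries of each cross overlapping in the Vhl/Hif2a and triple crosses. In the Vhl/Hif1a cross the 3 knockout libraries lay at 0.408, 0.412 and 0.427% and the 3 controls at 0.429, 0.436 and 0.451%. These shares are not scaled by TMM. With TMM scaling the sums in this cross overlapped, at 4120 to 4257 CPM in the knockout and 4221 to 4354 CPM in the control. In bulk RNA, fewer cells of a type and less RNA per cell cannot be told apart.

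Levels between genes were compared per kilobase of exon in the 9 control libraries. Idh1, the cytosolic NADP-dependent isocitrate dehydrogenase, had the highest control level at 131 CPM per kilobase, followed by Etfb, a subunit of the electron transfer flavoprotein, at 96.6. Of the 1164 exon bases of Etfb, 678 overlap other annotated genes on the same strand, so its level and rank are uncertain. Cpt1a, the carnitine palmitoyltransferase of the outer mitochondrial membrane that controls fatty acid entry, was the third at 77.3. Ogdh, the first subunit of the 2-oxoglutarate dehydrogenase complex, was at 68.7 CPM per kilobase, and Etfa, the partner of Etfb, at 60.8. At the other end were Etfdh, the enzyme that hands the flavoprotein's electrons to ubiquinone, at 7.79, Decr1, the dienoyl-CoA reductase for unsaturated fatty acids, at 5.64, and Pcx, the pyruvate carboxylase, at 1.46. The ranges of neighbouring genes in this order overlapped for most pairs, while Pcx at 0.860 to 2.81 CPM per kilobase lay below the lowest library of Decr1 at 4.99.

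Most of the genes varied little between libraries. The median coefficient of variation of the 35 genes over all 18 libraries was 8.86%, against 12.7% for the 9109 tested genes in the same range of mean CPM. Without the control of the triple knockout numbered 2 these medians were 6.50% and 10.3%. That library was the highest or lowest of the 18 for 20 of the 35 genes (57.1%), the highest for 12 and the lowest for 8, and for 60.1% of the genes in the same range, so its departure touched these enzymes about as often as other genes. For Dld, the shared dihydrolipoamide dehydrogenase subunit, it read 70.8 CPM where the other 17 libraries read 105 to 138 CPM. For Mdh2, the mitochondrial malate dehydrogenase, it read 225 CPM where the others read 136 to 167 CPM. The map of all genes in all libraries shows the same column standing out.

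**Figure D1:**
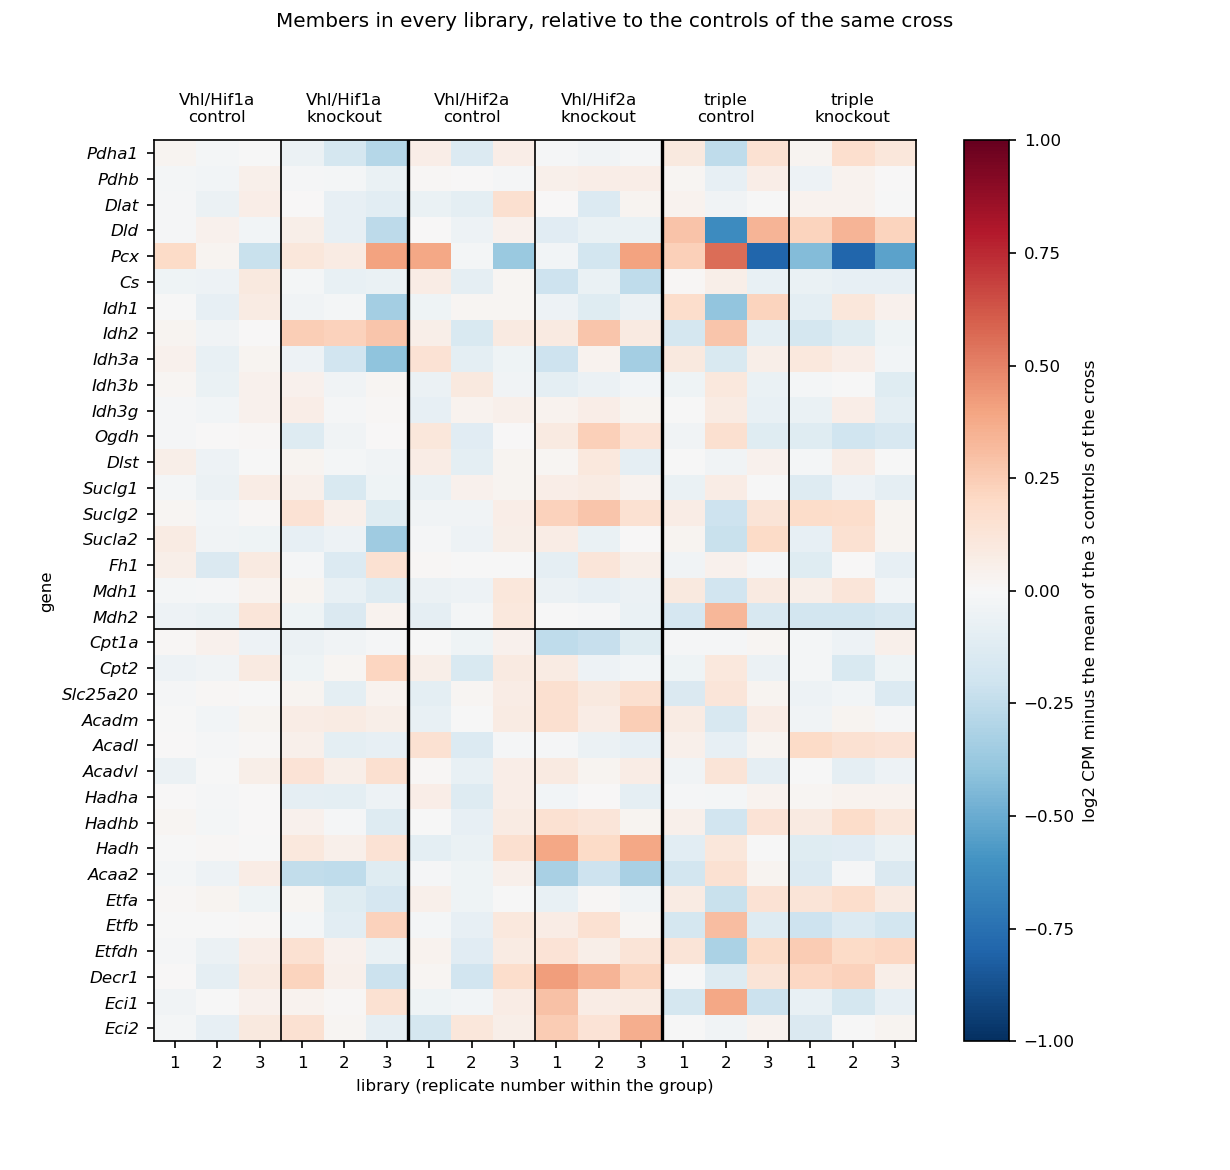
Each row is a gene and each column a library; the colour is log2 CPM minus the mean of the 3 controls of the same cross, from -1 (blue) to 1 (red), with pyruvate and TCA cycle genes above the line and fatty acid oxidation genes below it. Most cells are pale, Pcx and the column of triple control 2 hold the strongest colours, and Hadh and Decr1 are red while Acaa2 and Cpt1a are blue in all 3 Vhl/Hif2a knockout libraries.

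The question of the design is what Vhl loss does when only HIF-2α, only HIF-1α or neither factor is left. For these enzymes few changes were called, and all of them in the Vhl/Hif2a knockout. A call is an adjusted p under 0.05 in edgeR's quasi-likelihood test, with Benjamini-Hochberg adjustment over all 12900 tested genes. In the Vhl/Hif1a knockout 0 of 35 were called, where 3.64% of all tested genes were; 2 of the 35 had an unadjusted p under 0.05 and DESeq2 called 0. In the Vhl/Hif2a knockout 3 of 35 were called (8.57%), 1 higher and 2 lower, where 14.7% of all tested genes were (7.68% higher and 7.01% lower); 8 had an unadjusted p under 0.05 and DESeq2 also called 3. In the triple knockout 0 of 35 were called, where 0.0388% of all tested genes were; 2 had an unadjusted p under 0.05 and DESeq2 called 0. An unadjusted edgeR p under 0.05 was held by 1697, 3397 and 1484 of the 12900 tested genes in the 3 knockouts, in the same order. Without the control of the triple knockout numbered 2 the counts of calls were 1, 7 and 0, where 6.55%, 22.1% and 0.0228% of all genes were called.

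The estimates were narrow enough to bound most of the differences. The 95% interval of the log2 fold change lay within ±0.5, a 1.41-fold change in either direction, for 34 of 35 genes in the Vhl/Hif1a knockout, 33 in the Vhl/Hif2a knockout and 33 in the triple knockout. Over all tested genes this held for 55.8%, 48.6% and 49.4%. The median log2 fold change of the 35 genes was -0.03, 0.04 and -0.01 in these 3 comparisons. The median size regardless of direction was 0.05, 0.08 and 0.08, against 0.13, 0.18 and 0.17 over all tested genes. In each comparison the median SE was 0.083 for the 35 genes and 0.14 over all tested genes. These shares and sizes were not compared at a like range of CPM, so they do not show that these enzymes were unusually stable. The exceptions to the ±0.5 bound were Pcx in every knockout, Decr1 in the Vhl/Hif2a knockout and Dld in the triple knockout.

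**Figure D2:**
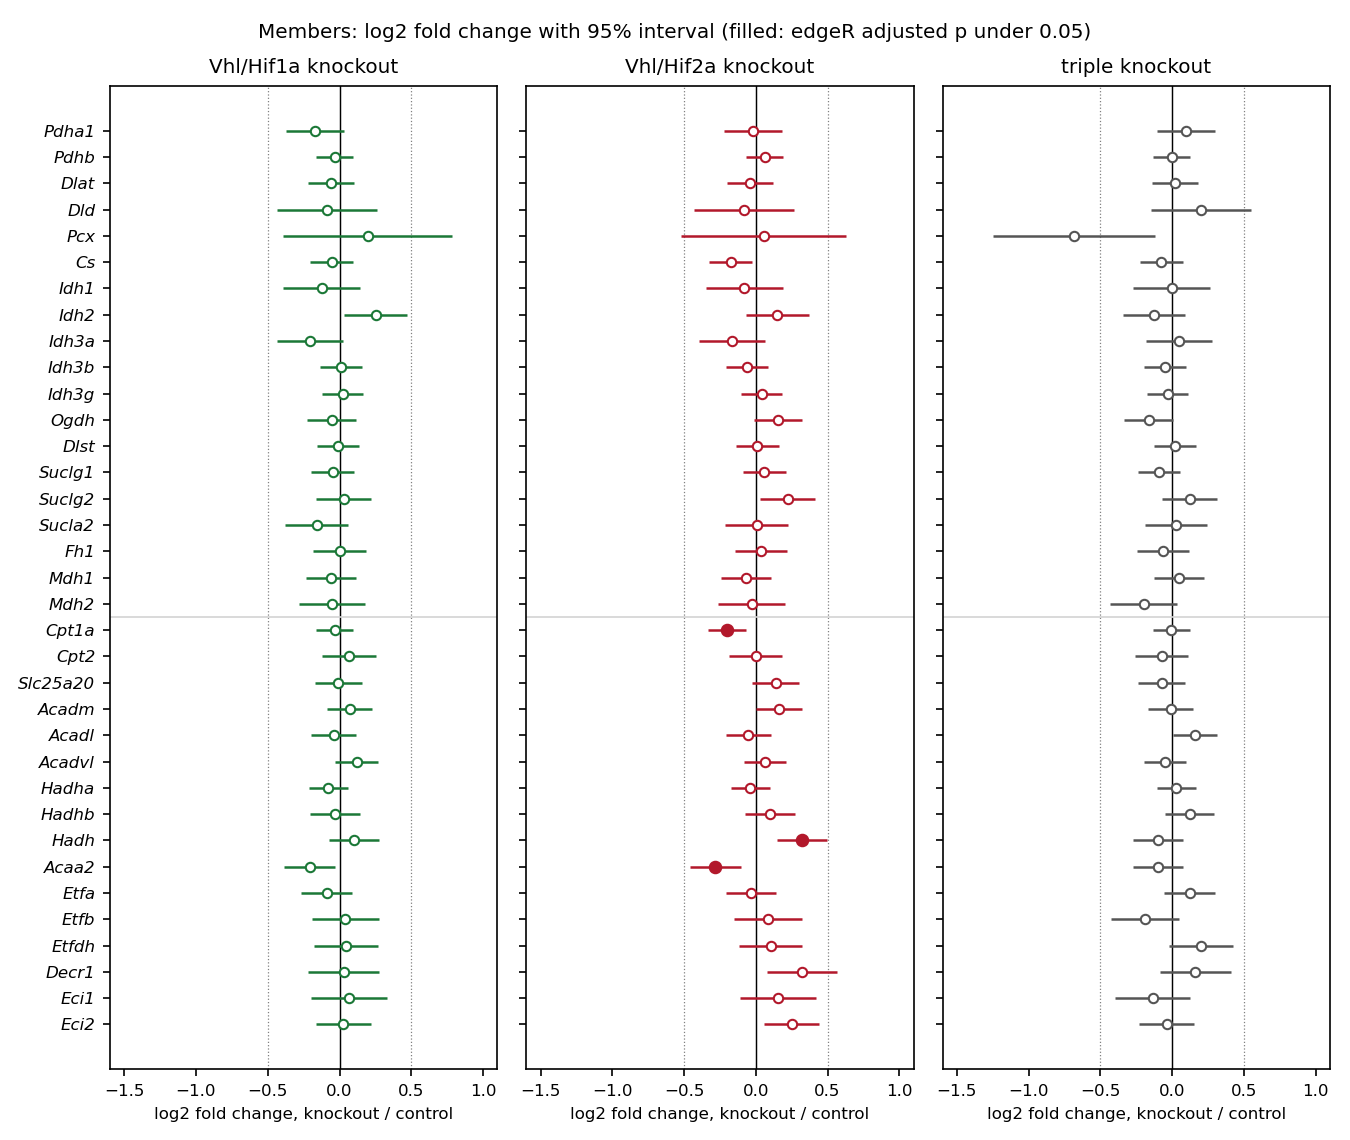
Points are log2 fold changes of each knockout over its own control (n = 3 against 3) with 95% intervals, 1 panel per knockout, filled where the edgeR adjusted p was under 0.05; dotted lines mark ±0.5. The 3 filled points are Cpt1a and Acaa2 to the left and Hadh to the right of 0 in the Vhl/Hif2a panel, and Pcx has the widest interval in each panel.

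In the libraries labelled Vhl/Hif2a knockout, whose label leaves Hif1a intact, the 3 called genes were among the 16 fatty acid oxidation genes (18.8%, near the 14.7% of all tested genes): Hadh rose, and Acaa2 and Cpt1a fell, each by less than 1.41-fold. Hadh encodes the 3-hydroxyacyl-CoA dehydrogenase for short and medium chains and Acaa2 the thiolase that cleaves off acetyl-CoA. Hadha and Hadhb, which carry out the same steps for long chains, were not called. Of the 19 genes of pyruvate entry and the TCA cycle 0 were called by edgeR. An unadjusted p under 0.05 was held by 2 of them and by 3397 of all 12900 tested genes.

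Hadh (ENSMUSG00000027984, GRCm38 chr3:131233419-131272101, minus strand) was at 65.3, 57.1 and 65.1 CPM in the Vhl/Hif2a knockout libraries and at 46.7, 47.7 and 55.9 CPM in their controls. All 3 knockout libraries were above all 3 controls, the nearest pair being 57.1 and 55.9. The log2 fold change was 0.32 ± 0.08 (SE; edgeR adjusted p = 0.0136). Leaving out knockout 1 or 3 or control 1 or 2 ended the call, with log2 fold changes of 0.27 to 0.29 and adjusted p of 0.0591 to 0.069. It also ended with only these 2 groups in the fit (0.31, adjusted p = 0.057).

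Acaa2 (ENSMUSG00000036880, GRCm38 chr18:74779197-74806208, plus strand) was at 54.0, 58.4 and 54.0 CPM in the Vhl/Hif2a knockout and at 66.9, 65.6 and 69.9 CPM in its control. The groups did not overlap, and the 3 knockout libraries were the lowest. The log2 fold change was -0.28 ± 0.08 (edgeR adjusted p = 0.0293). The call ended without knockout 1 or 3 or any 1 of the 3 controls, at -0.25 to -0.30 with adjusted p of 0.054 to 0.124, and with no filter on low counts (adjusted p = 0.101).

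Cpt1a (ENSMUSG00000024900, GRCm38 chr19:3322334-3385733, plus strand) was at 511, 520 and 563 CPM in the Vhl/Hif2a knockout and at 609, 594 and 629 CPM in its control. Again the groups did not overlap, and the nearest pair was 563 in the knockout and 594 in the control. The log2 fold change was -0.20 ± 0.06 (edgeR adjusted p = 0.0367). The call ended without knockout 1 or 2 or any 1 of the 3 controls (adjusted p of 0.0555 to 0.157), with no filter on low counts (0.240), and with only these 2 groups in the fit (0.0783). With the replicate number as a block its adjusted p was 0.110.

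The remaining fatty acid oxidation genes of the Vhl/Hif2a knockout are given by role. In the carnitine shuttle, Slc25a20, the carnitine-acylcarnitine carrier, was at 47.1 ± 1.26 against 42.8 ± 2.65 CPM (SD, n = 3; log2 fold change 0.14, adjusted p = 0.282), and Cpt2, the inner membrane transferase, at 49.2 ± 2.34 against 49.3 ± 4.43 CPM. Among the acyl-CoA dehydrogenases, which open each round for medium, long and very long chains, Acadm, Acadl and Acadvl had log2 fold changes of 0.16, -0.05 and 0.06. The trifunctional protein subunits Hadha and Hadhb stood at -0.04 and 0.10, and the electron carriers Etfa, Etfb and Etfdh at -0.03, 0.08 and 0.10. None of these genes or of the 19 pyruvate and TCA cycle genes was called.

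The 3 enzymes that prepare unsaturated fatty acids for beta-oxidation were all above 0, at 0.32 ± 0.12 for Decr1, 0.25 ± 0.09 for Eci2 and 0.15 ± 0.12 for Eci1, and 0 of the 3 were called. They are named here after their values were seen. Decr1 was at 29.5, 28.0 and 25.8 CPM in the knockout and at 22.4, 19.3 and 24.95 CPM in the control, and Eci2, an enoyl-CoA isomerase, at 121, 112 and 131 CPM against 90.3, 110 and 106 CPM. For both genes the knockout libraries lay above all controls, with adjusted p = 0.0774 each in edgeR. Without the control of the triple knockout numbered 2, a library outside this comparison, the adjusted p was 0.0424 for Decr1 and 0.0465 for Eci2. Acadm (0.16, adjusted p = 0.0491) and Suclg2 (0.22, adjusted p = 0.0319), the GTP-forming succinyl-CoA ligase subunit, were called only in that fit among those run, while Decr1 was also called without Vhl/Hif2a control 3 (0.42, adjusted p = 0.0413). Exons of Eci2 overlap another annotated gene, and how shared reads were assigned is not given in the sources used here.

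In the pyruvate dehydrogenase complex, Pdha1, Pdhb, Dlat and Dld had log2 fold changes of -0.02, 0.06, -0.04 and -0.08 in the Vhl/Hif2a knockout. In the TCA cycle the values ran from -0.17 for Cs, the citrate synthase (188 ± 13.0 against 212 ± 12.3 CPM; adjusted p = 0.120), to 0.22 for Suclg2 (53.0 ± 2.24 against 45.4 ± 1.89 CPM; adjusted p = 0.122). The 3 isocitrate dehydrogenase 3 subunits Idh3a, Idh3b and Idh3g stood at -0.17, -0.06 and 0.04. Fh1, the fumarase, stood at 0.04, and the malate dehydrogenases Mdh1 and Mdh2 at -0.07 and -0.03. Over all 35 genes the CPM of knockout and control did not overlap for 10, 6 higher and 4 lower, where 35.1% of all tested genes did not overlap.

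**Figure D3:**
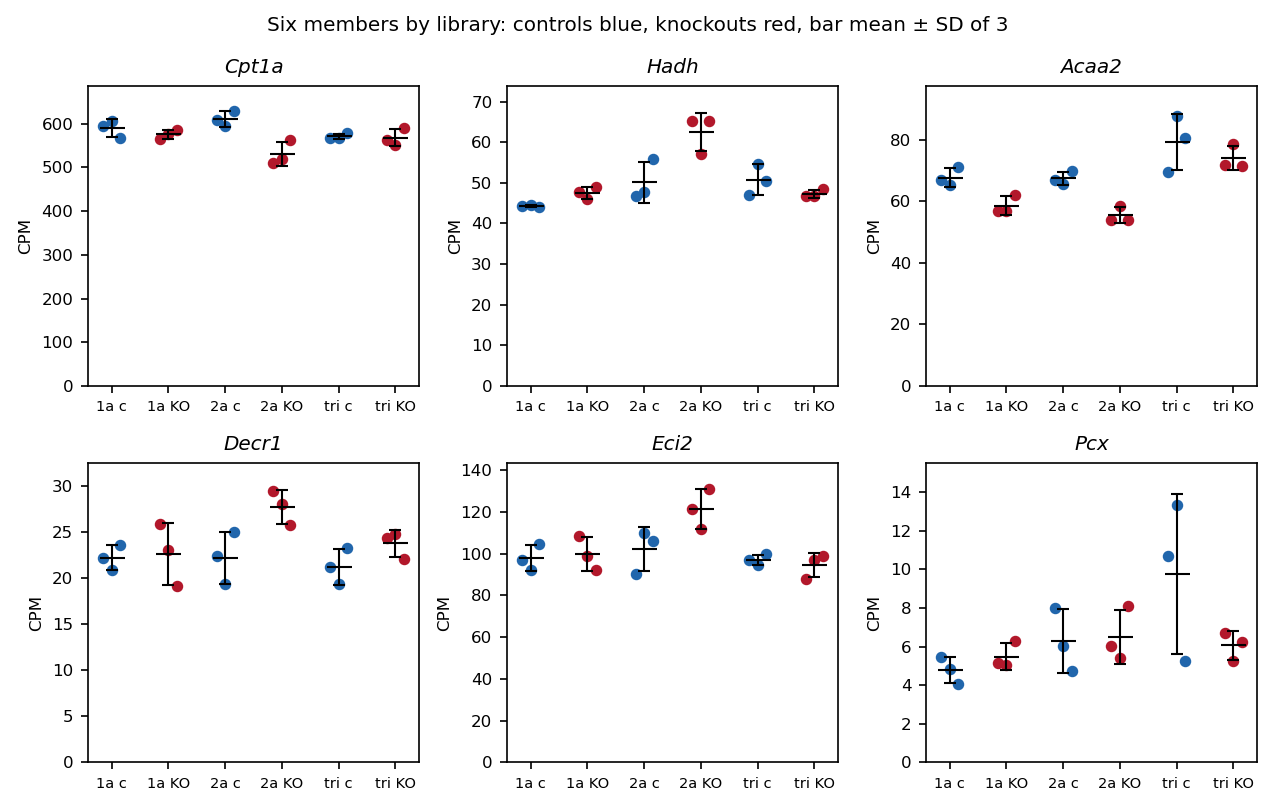
CPM of 6 genes in each library, 1 panel per gene, with controls in blue, knockouts in red and bars at the mean ± SD of 3; 1a, 2a and tri are the Vhl/Hif1a, Vhl/Hif2a and triple crosses, c is control and KO knockout. In the Vhl/Hif2a cross the red points lie above the blue ones for Hadh, Decr1 and Eci2 and below them for Cpt1a and Acaa2, and Pcx spreads from 5.23 to 13.4 CPM within the triple controls.

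In the libraries labelled Vhl/Hif1a knockout, whose label leaves Hif2a intact, none of the 35 enzymes was called. The lowest value was that of Acaa2, at 57.0, 56.7 and 62.2 CPM against 66.8, 65.2 and 71.2 CPM in control (log2 fold change -0.21 ± 0.08, edgeR adjusted p = 0.253). The highest was that of Idh2, the mitochondrial NADP-dependent isocitrate dehydrogenase, at 83.0, 82.0 and 84.9 CPM against 71.3, 68.2 and 70.3 CPM (0.25 ± 0.10, adjusted p = 0.266). For both genes the groups did not overlap. Idh2 was called in 1 of 13 alternative fits, the one without the control of the triple knockout numbered 2 (0.25, adjusted p = 0.0409). Groups that did not overlap were counted for 4 higher and 4 lower of the 35 genes, where 23.8% of all tested genes did not overlap.

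By role, log2 fold changes in this knockout ran from -0.17 (Pdha1) to 0.20 (Pcx) for pyruvate entry, from -0.21 (Idh3a) to 0.25 (Idh2) for the TCA cycle, from -0.03 to 0.07 in the carnitine shuttle and from -0.21 (Acaa2) to 0.12 (Acadvl) among the beta-oxidation enzymes. The electron carriers ran from -0.09 to 0.05 and the enzymes for unsaturated fatty acids from 0.03 to 0.07. There Cpt1a was at 576 ± 10.2 CPM against 590 ± 20.3 CPM and Hadh at 47.5 ± 1.53 against 44.3 ± 0.228 CPM, and neither was called. Exons of Pdha1 overlap a gene on the opposite strand.

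In the triple knockout, labelled as lacking both factors, none of the 35 enzymes was called. Hadh, Acaa2 and Cpt1a had log2 fold changes of -0.10 ± 0.08, -0.10 ± 0.08 and -0.01 ± 0.06. The lowest value was that of Pcx, the enzyme that makes oxaloacetate from pyruvate. It was at 6.72, 5.25 and 6.25 CPM in the knockout and at 10.7, 13.4 and 5.23 CPM in the control (-0.68 ± 0.27, edgeR adjusted p = 0.429). The knockout libraries were close together and the controls were not, and the third control lay below all of them. Without control 2 the value was -0.40. The highest values were those of Etfdh and Dld at 0.20 each, and control 2 was the lowest library for both. Without it these values were 0.06 and -0.05. The groups did not overlap for 2 of 35 genes, Etfdh and Acadl, both higher, where 15.3% of all tested genes did not overlap.

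Differences between the knockouts' effects were tested directly. Between the Vhl/Hif2a and Vhl/Hif1a effects 0 of 35 genes differed, where 2.44% of all tested genes did, and 0 had an unadjusted p under 0.05 (DESeq2 called 0). The difference was 0.22 for Hadh (95% interval -0.03 to 0.47), -0.17 for Cpt1a (-0.35 to 0.02) and -0.08 for Acaa2 (-0.32 to 0.17). Between the Vhl/Hif1a and triple effects 0 genes differed, where 2.04% did, with 2 at an unadjusted p under 0.05 (DESeq2 called 0). Over all 12900 tested genes an unadjusted edgeR p under 0.05 was held by 1358 in the first of these differences and 2160 in the second. Between the Vhl/Hif2a and triple effects 1 gene, Hadh, differed, where 7.99% did: its effect was larger by 0.42 ± 0.12 (edgeR adjusted p = 0.033). That call ended without any 1 of 7 libraries, namely Vhl/Hif2a knockout 1 or 3, Vhl/Hif2a control 1 or 2, or any triple knockout library (adjusted p of 0.0614 to 0.0914). It also ended with no filter on low counts (0.0751), with only these 4 groups in the fit (0.118) and with the replicate number as a block (0.0695).

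Across the 35 genes the log2 fold changes of the Vhl/Hif2a knockout and the Vhl/Hif1a knockout had a Pearson r of 0.61 and a Spearman rho of 0.70. Those of the triple knockout had r of -0.43 (rho -0.36) with the Vhl/Hif1a knockout and -0.05 (rho -0.17) with the Vhl/Hif2a knockout. Triple control 2 enters the values of the triple knockout, and no correlation was computed without it or over all tested genes. These are descriptions across genes measured in the same libraries, and genes are not independent replicates. Acaa2 had the lowest value of the 35 genes in both double knockouts, at -0.21 and -0.28, and Idh2 stood at 0.25 and 0.15.

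Few of these enzymes were called between the control groups. The Vhl/Hif2a control against the Vhl/Hif1a control gave 0 calls of 35 (0.341% of all tested genes; 1 unadjusted p under 0.05, DESeq2 0). The triple control against the Vhl/Hif1a control gave 1 call (5.4% of all tested genes; 11 unadjusted p under 0.05, DESeq2 2), Pcx, at 9.76 ± 4.14 against 4.79 ± 0.680 CPM (1.03 ± 0.27, edgeR adjusted p = 0.0399). The third triple control, at 5.23 CPM, lay within the range of the Vhl/Hif1a controls. The call ended without triple control 1 or 2 or any 1 Vhl/Hif1a control (adjusted p of 0.0634 to 0.158), and without triple control 2 the value was 0.74. The triple control against the Vhl/Hif2a control gave 0 calls (3.42% of all tested genes, with 5 members at an unadjusted p under 0.05, DESeq2 1). Of all 12900 tested genes 702, 3149 and 2845 had an unadjusted edgeR p under 0.05 in these 3 control comparisons, in the order given.

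Genes that surround these pathways were read from 6 lists of 90 genes, of which 83 were tested: pyruvate entry and its regulation, further TCA cycle and succinate dehydrogenase genes, anaplerosis and metabolite carriers, further mitochondrial and peroxisomal fatty acid oxidation, and regulators of mitochondrial content. In the Vhl/Hif1a knockout 3 were higher and 0 lower, and in the Vhl/Hif2a knockout 8 were higher and 4 lower. In the triple knockout 0 were called by edgeR. There 10 of the 83 had an unadjusted edgeR p under 0.05, and so did 1484 of all 12900 tested genes. DESeq2 called 6, 12 and 0. As shares, 3.61%, 14.5% and 0% of the listed genes were called, close to the shares over all tested genes given above. Without the control of the triple knockout numbered 2 the counts were 6, 16 and 0.

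Kinases that regulate pyruvate dehydrogenase were called in the Vhl/Hif2a knockout, where 0 of its 4 subunits were. Pdk1, the kinase that inactivates the complex, was at 270, 277 and 279 CPM in the Vhl/Hif2a knockout and at 68.7, 52.5 and 55.4 CPM in its control. Every knockout library lay far above the highest control, and the log2 fold change was 2.23 ± 0.11 (edgeR adjusted p = 3.2e-10). Pdk1 in the libraries labelled Vhl/Hif1a knockout was at 61.5 ± 2.68 against 47.6 ± 1.98 CPM, without overlap (0.37 ± 0.11, adjusted p = 0.0678), and in the triple knockout at 57.1 ± 5.26 against 56.4 ± 6.99 CPM (0.02 ± 0.10).

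Pdk4, a second kinase of the family, was at 63.4, 63.3 and 59.7 CPM in the Vhl/Hif2a knockout and at 37.6, 18.4 and 21.3 CPM in its control (1.27 ± 0.19, edgeR adjusted p = 1.3e-04). Control 1 was the highest of the 3 for both kinases, and this library also held Egln3, a gene known to be induced by HIF, at 11.5 CPM against 0.465 and 2.47 CPM in the other controls. In the Vhl/Hif1a cross, control 3 held Egln3 at 32.5 CPM against 0.464 and 0.617 CPM in the other controls. That library was the highest of these 3 controls for Pdk1 and Acly and the lowest for Acsl3 and Acaa1b, which rose in this knockout. Control 1 of the Vhl/Hif2a cross was also the highest of its group for Hsd17b4, which fell in that knockout. Egln3 and these genes were picked after their values were seen, and why these controls differ was not tested. Pdk4 in the Vhl/Hif1a knockout was at 15.7 ± 0.559 against 21.9 ± 2.80 CPM, below all controls (-0.48 ± 0.19, adjusted p = 0.243). The effects of the Vhl/Hif2a and Vhl/Hif1a knockouts differed by 1.86 ± 0.15 for Pdk1 and 1.75 ± 0.27 for Pdk4 (edgeR adjusted p = 9.0e-07 and 8.6e-04), and both differences passed in all 19 alternative fits. Pdk2 was not called in any of the 3 knockouts, and Pdk3 was called in the Vhl/Hif2a knockout at 0.34 ± 0.10 (adjusted p = 0.0324), a call that ended without any 1 of the 6 libraries compared.

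Promoter windows of Hadh, which rose, and Cpt1a, which fell, are shown with one of Pdk1, since HIF binds the core letters ACGTG or GCGTG. The windows are from RefSeq on GRCm38.p6 and run from 250 bases before to 50 after a start listed there, 5′ to 3′ on the gene's strand. Capitals mark each match to ACGTG or GCGTG read on either strand, a search that also takes in part of the CACGTG E-box. The windows lie at chr2:71872974-71873273 (plus strand) for Pdk1, at chr3:131272052-131272351 (minus strand) for Hadh and at chr19:3323051-3323350 (plus strand) for Cpt1a. The Cpt1a window lies inside the gene span given above, which begins at chr19:3322334, and does not cover that start.
Pdk1: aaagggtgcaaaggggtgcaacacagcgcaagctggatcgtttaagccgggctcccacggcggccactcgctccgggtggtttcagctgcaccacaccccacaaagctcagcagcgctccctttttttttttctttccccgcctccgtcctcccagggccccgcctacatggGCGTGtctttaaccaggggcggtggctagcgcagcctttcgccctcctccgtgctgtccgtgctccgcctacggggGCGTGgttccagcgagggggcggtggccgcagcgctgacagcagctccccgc
Hadh: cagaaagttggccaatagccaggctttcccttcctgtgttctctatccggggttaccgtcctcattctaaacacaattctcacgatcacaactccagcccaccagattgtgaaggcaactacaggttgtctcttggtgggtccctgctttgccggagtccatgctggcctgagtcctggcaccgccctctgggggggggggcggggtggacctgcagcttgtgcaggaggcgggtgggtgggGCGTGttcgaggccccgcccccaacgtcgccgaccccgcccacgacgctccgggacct
Cpt1a: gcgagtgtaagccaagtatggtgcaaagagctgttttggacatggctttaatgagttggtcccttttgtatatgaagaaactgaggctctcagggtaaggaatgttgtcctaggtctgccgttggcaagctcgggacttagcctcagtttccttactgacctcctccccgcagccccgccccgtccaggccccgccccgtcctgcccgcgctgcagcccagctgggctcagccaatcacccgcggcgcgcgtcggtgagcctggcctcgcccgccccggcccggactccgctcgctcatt
Pdk1 held 2 matches, Hadh 1 and Cpt1a 0 in these windows. A second Pdk1 window, at chr2:71874654-71874953, held 0 and is not shown. At least 1 match was found for 19 of the 32 member genes with a window (59.4%) and for 46.7% of the 27025 genes with one, so a match is common. A match is a run of letters only, and its absence says nothing about the factor.

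Around the TCA cycle, Acly, which splits citrate into acetyl-CoA in the cytosol, was at 835, 936 and 831 CPM in the Vhl/Hif1a knockout and at 426, 430 and 501 CPM in its control. The groups were far apart (0.94 ± 0.09, edgeR adjusted p = 1.9e-06). In the Vhl/Hif2a knockout Acly was at 474 ± 35.1 against 410 ± 25.7 CPM (0.21 ± 0.09, adjusted p = 0.121), and the 2 effects differed by -0.73 ± 0.12 (Vhl/Hif2a minus Vhl/Hif1a, adjusted p = 0.0019). Slc25a1, the carrier that exports citrate from mitochondria, had the other pattern, at 111 ± 7.43 against 73.4 ± 10.7 CPM in the Vhl/Hif2a knockout (0.60 ± 0.15, adjusted p = 0.0106, and 0.0624 without control 2). Its level in the libraries labelled Vhl/Hif1a knockout was 70.7 ± 7.12 against 64.9 ± 2.45 CPM (0.12 ± 0.15). The difference of its effects between these 2 knockouts was not called.

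Me2, the mitochondrial malic enzyme, fell in the Vhl/Hif2a knockout, at 119, 117 and 122 CPM against 153, 149 and 157 CPM (-0.36 ± 0.08, edgeR adjusted p = 0.0048). The groups were well separated, and the call held in all 13 alternative fits. Aco1, the cytosolic aconitase (-0.25 ± 0.06, adjusted p = 0.0137), and Sdhb, a succinate dehydrogenase subunit (-0.31 ± 0.09, adjusted p = 0.0283), also fell, and single libraries ended these calls. The other succinate dehydrogenase subunits Sdha, Sdhc and Sdhd stood at 0.03, -0.04 and 0.00 in the same knockout.

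Among further fatty acid genes, Acsl3, a long-chain acyl-CoA synthetase, rose in both double knockouts. It was at 25.5, 29.7 and 21.6 CPM against 11.8, 11.2 and 9.33 CPM in the Vhl/Hif1a cross (1.25 ± 0.22, edgeR adjusted p = 0.0019) and at 24.0, 14.6 and 24.7 CPM against 11.3, 6.83 and 8.60 CPM in the Vhl/Hif2a cross (1.25 ± 0.22, adjusted p = 7.6e-04). No knockout library overlapped a control, and both calls held in all 13 alternative fits. In the triple knockout its value was 0.32 ± 0.23 (adjusted p = 0.475). Hsd17b4, the peroxisomal bifunctional enzyme, fell in the Vhl/Hif2a knockout, at 313, 310 and 320 CPM against 437, 352 and 403 CPM (-0.34 ± 0.07, adjusted p = 0.0048). In the Vhl/Hif1a knockout its value was -0.26 ± 0.07 (adjusted p = 0.077), also without overlap.

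Acaa1b, a peroxisomal thiolase, rose in both double knockouts (0.66 ± 0.15 and 0.64 ± 0.15, edgeR adjusted p = 0.0211 and 0.0089). Acot2, a mitochondrial acyl-CoA thioesterase, rose in the Vhl/Hif2a knockout (0.54 ± 0.14, adjusted p = 0.0153), and so did D2hgdh, a 2-hydroxyglutarate dehydrogenase (0.28 ± 0.09, adjusted p = 0.0424). Single libraries ended each of these 4 calls, and Acaa1b and Acot2 have near-identical paralogs, so their counts are uncertain. Of the 11 tested regulators 0 were called in the 3 knockouts, among them Pparg, the lipid-sensing nuclear receptor of alveolar macrophages, at 0.17, 0.26 and 0.21, and Tfam, the mitochondrial transcription factor, at -0.19, -0.01 and 0.19.

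**Figure D4:**
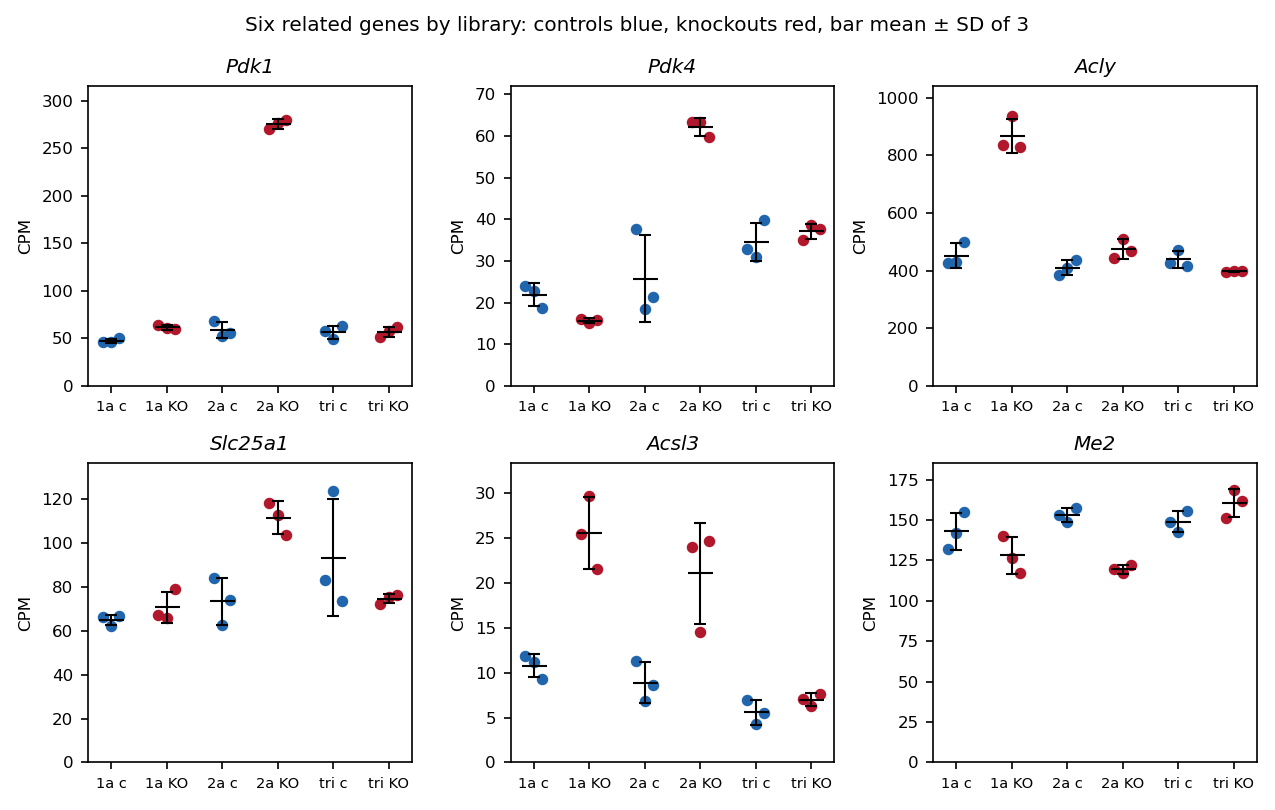
CPM of 6 surrounding genes in each library, 1 panel per gene, with controls in blue, knockouts in red and bars at the mean ± SD of 3; 1a, 2a and tri are the Vhl/Hif1a, Vhl/Hif2a and triple crosses, c is control and KO knockout. Pdk1 and Pdk4 are highest in the Vhl/Hif2a knockout, Acly in the Vhl/Hif1a knockout, and Acsl3 in both of these knockouts.

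Markers of other cells moved with some of the groups compared. All 9 monocyte and interstitial macrophage markers summed to 58.6 to 85.2 CPM in the Vhl/Hif2a knockout against 15.5 to 30.8 CPM in its control, and to 34.7 to 47.7 against 21.7 to 28.8 CPM in the Vhl/Hif1a cross. Itgam made up most of the sum in the Vhl/Hif2a knockout, at 35.1 to 59.9 CPM against 4.60 to 8.33 CPM in control. Ccr2 was at 19.4 to 19.99 CPM there against 8.18 to 14.3 CPM, while C1qa, C1qb and C1qc were each at 0.209 to 1.15 CPM there and Ly6c2 was at 0 in 2 of the 3 libraries. F13a1 was at 6.38 to 14.7 CPM in the Vhl/Hif1a knockout against 0 to 0.694 CPM in its control. The 7 dendritic cell markers summed to 8.10 to 10.5 CPM in the Vhl/Hif2a knockout against 19.5 to 47.3 CPM in its control. Ccr7 and Fscn1 made up most of these sums. Ccr7 was at 2.33 to 3.23 against 7.30 to 18.4 CPM and Fscn1 at 1.95 to 3.71 against 7.06 to 19.3 CPM. Flt3, Zbtb46 and Xcr1 were also lower without overlap, while Clec9a and Cd209a overlapped. In the Vhl/Hif1a cross, neutrophil markers summed to 74.0 to 82.5 CPM in the knockout against 149 to 165 CPM in its control. Csf3r, Mmp8 and Cxcr2 made up most of that neutrophil sum and were lower in the knockout. S100a8 was higher there, at 6.03 to 7.86 against 2.20 to 3.92 CPM. In the Vhl/Hif2a cross the neutrophil sums of knockout and control overlapped, and so did Mmp8. Csf3r was nevertheless lower in the Vhl/Hif2a knockout, at 31.05 to 39.20 against 64.04 to 82.20 CPM, and Cxcr2 was also lower without overlap. S100a8 was higher in that knockout, at 8.879 to 11.68 against 2.913 to 3.898 CPM. Lung epithelium markers in the Vhl/Hif1a cross summed to 26.4 to 46.4 against 66.1 to 74.2 CPM. Epcam made up most of that epithelium sum, at 24.7 to 41.3 against 64.1 to 67.3 CPM, while Sftpc was at 0.112 to 0.743 against 0.154 to 0.591 CPM. Between the controls, lung epithelium markers also differed, at 208 to 248 CPM in the triple and 256 to 402 CPM in the Vhl/Hif2a control. Epcam again made up most of these sums. Whether the numbers of such cells changed, and their part in the differences of Hadh, Acaa2, Cpt1a, Pcx and the surrounding genes, was not tested.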

How the data were processed

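PolyA RNA was sequenced from 18 libraries in 6 groups of 3. The authors deposited 1 matrix of expected counts (estimated reads per gene, a unit inferred from its values, 89.3% of which are whole). The submitters' processing notes list FastQC, cutadapt and STAR, and GRCm38. For tool versions, the counting step, the annotation release and strandedness: not given in the sources used here. Counts were rounded; filterByExpr (default settings, 6 groups) left 12900 genes holding 99.967% of counts. An edgeR 4.0.16 quasi-likelihood model (limma 3.58.1, R 4.3.3) with TMM scaling and a group-means design took in all 18 libraries, with p-values adjusted by Benjamini-Hochberg over all tested genes. DESeq2 1.42.0 was an alternative. SE is the fold change divided by the root of F, and 95% intervals use 16.5 degrees of freedom. Errors cover counting and spread between libraries only. Members had 102 to 18827 counts per library, 30 of the 35 always whole. Whether low counts widened the intervals was not tested. The script was tested on simulated data. The members, the lists and the tests were chosen with earlier results of these data known. Members called in a knockout or in a difference between knockouts were described in full, the others by counts and ranges; Decr1, Eci2, Suclg2, Acadm, Idh2, Pcx and other members named singly were chosen after their values were seen. Gene positions and exon lengths are from GENCODE M21 (GRCm38); all 35 genes matched by identifier. Promoter windows are from RefSeq (GRCm38.p6), with the members' genes matched by symbol for 32 of 35. Protein sequences were not used here.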

Additional observations from a re-analysis of the deposited data

Results flagged for a closer look

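These effects differed between knockouts by a direct test of the difference (edgeR quasi-likelihood test, Benjamini-Hochberg adjusted p under 0.05 over all genes, n = 3 per group). Among the 35 enzymes, the Hadh effect was larger in the Vhl/Hif2a than in the triple knockout by 0.4213 on the log2 scale. Pdk1 exceeded the Vhl/Hif1a effect by 1.857 and the triple effect by 2.209, and Pdk4 by 1.754 and 1.17. Acly had the opposite order: its Vhl/Hif2a effect minus its Vhl/Hif1a effect was -0.7317, and its Vhl/Hif1a effect exceeded the triple effect by 1.084. The Vhl/Hif2a effect minus the triple effect was 0.9234 for Slc25a1, 0.805 for Acot2, 0.8252 for Acaa1b, -0.4647 for Me2 and -0.416 for Hsd17b4. The triple control numbered 2 had the highest Slc25a1 level of its group, at 123 CPM against 83.0 and 73.3; without it the Slc25a1 difference was 0.67 and remained called. It was also the highest of its group for Acot2 (49.3 CPM against 30.2 in both others) and Acaa1b (591 CPM against 364 and 381), and without it these differences were 0.53 and 0.57 and remained called. The differences of Hadh, Acot2, Hsd17b4 and Acaa1b ended without single libraries, and that of Me2 ended in 2 other alternative fits.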

How the results depend on the processing

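No result changed direction past the threshold in any alternative. Counts of the 35 members called moved as follows. Leaving out 1 library gave 0 to 0 for the Vhl/Hif1a knockout, 0 to 2 for the Vhl/Hif2a knockout and 0 to 0 for the triple knockout; for the differences of effects it gave 0 to 0 (Vhl/Hif2a minus Vhl/Hif1a), 0 to 1 (Vhl/Hif1a minus triple) and 0 to 3 (Vhl/Hif2a minus triple). Between controls it gave 0 to 0 (Vhl/Hif2a against Vhl/Hif1a), 0 to 2 (triple against Vhl/Hif1a) and 0 to 1 (triple against Vhl/Hif2a). The Vhl/Hif2a knockout had 1 call with no filter on low counts and 1 with only its groups in the fit. Without triple control 2, an alternative chosen after seeing the data, it had 7 and the Vhl/Hif1a knockout 1. The Vhl/Hif2a minus triple difference had 0 with no filter, 2 with DESeq2, 0 with only its groups in the fit and 0 with the replicate block. The triple against the Vhl/Hif1a control had 2 with DESeq2, 0 with only its groups and 0 with the replicate block, and against the Vhl/Hif2a control 1 with DESeq2. The cause of these shifts was not tested.

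Over all genes, leaving out 1 library gave 275 to 360 calls in the Vhl/Hif1a knockout, 1249 to 1639 in the Vhl/Hif2a knockout and 3 to 4 in the triple knockout. For the differences it gave 213 to 281 (Vhl/Hif2a minus Vhl/Hif1a), 161 to 401 (Vhl/Hif1a minus triple) and 675 to 1390 (Vhl/Hif2a minus triple). Between controls it gave 18 to 32, 211 to 1187 and 141 to 858. Without triple control 2 the counts were 861, 2907 and, for the Vhl/Hif2a minus Vhl/Hif1a difference, 503. DESeq2 gave 11 for the triple knockout, 492 and 479 for the Vhl/Hif2a minus Vhl/Hif1a and Vhl/Hif1a minus triple differences, and 88, 1293 and 983 between controls. With only the groups compared in the fit there were 2 for the triple knockout, 680 for Vhl/Hif2a minus triple, and 66 and 17 for the triple control against the other controls. With the replicate block there were 194 and 150 for the Vhl/Hif2a minus Vhl/Hif1a and Vhl/Hif1a minus triple differences.

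The labels do not say that the replicate numbers pair the samples. Deviations of same-numbered libraries correlated at -0.017, 0.056 and -0.049 in the Vhl/Hif1a cross. The values were -0.218, 0.056 and 0.200 in the Vhl/Hif2a cross and 0.098, -0.040 and -0.072 in the triple cross. Libraries of different numbers in the Vhl/Hif2a cross correlated at -0.252 to 0.193. With so few libraries these values cannot decide whether samples were paired. With the replicate block 2 members were called in the Vhl/Hif2a knockout, Acaa2 and Hadh, and 0 in the Vhl/Hif1a and triple knockouts. With 3 libraries per group, differences can be missed, and size alone did not decide which genes were called. In the Vhl/Hif2a knockout Cpt1a was called at -0.20, while Decr1 at 0.32 and Eci2 at 0.25 were not. Pcx had the fewest counts of the members (102 in its lowest library) and the widest intervals.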
